A study of Mus musculus with 14 samples.

Results

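Splicing factors and RNA-binding ribonucleoproteins were followed in germinal centre (GC) B cells as 49 of the 9969 genes of a table of unique molecular identifiers (UMIs). The members were all rows whose symbols start with Srsf, Hnrnp, Snrp, Sf3a or Sf3b. The rule uses names and not values, although it was set with earlier results of these data known. They comprise 11 Snrp, 3 Sf3a, 6 Sf3b, 10 Srsf and 19 Hnrnp genes. Introns are removed from new transcripts by the spliceosome, which is built from small nuclear ribonucleoproteins (snRNPs). Most of these are an RNA in a ring of Sm proteins with a few proteins of its own. SR proteins bind exons and help the snRNPs to find splice sites, whereas heterogeneous nuclear ribonucleoproteins (hnRNPs) coat the transcript and often keep sites from being used. In B cells, alternative splicing and alternative polyadenylation decide between membrane and secreted antibody and between IgM and IgD. Counts per gene, as used here, measure the amount of message of each factor and not which splice forms were made.

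The cells came from popliteal lymph nodes of C57BL/6 chimeric mice in which 50% of the cells were wild type (WT) and 50% SykY317F, taken 14 days after immunization with NP-KLH, a hapten on a carrier protein. Syk is a kinase that passes on signals from the antigen receptor of B cells, and the SykY317F allele encodes phenylalanine in place of one tyrosine. GC B cells of the light zone (LZ), where they meet antigen and helper T cells, and of the dark zone (DZ), where they divide and mutate their antibody genes, were sorted separately. Both genotypes thus came from mixed hosts of the same strain, antigen and day, and no agent other than the immunization is given. Which libraries came from the same mouse is not stated. The 14 libraries comprise 3 SykY317F LZ, 3 SykY317F DZ, 4 WT LZ and 4 WT DZ libraries. Separate mice for the libraries of a group are not stated in the labels, so p-values measure the spread between these libraries, which may be partly technical.

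Libraries held 149641 to 379125 UMIs in SykY317F LZ, 381954 to 1413310 in SykY317F DZ, 499443 to 1600902 in WT LZ and 747948 to 1767898 in WT DZ. For every 100 reads, SykY317F LZ yielded 9.37 to 15.8 UMIs, and replicate 4 of SykY317F DZ yielded 15.6, compared with 33.5 to 53.2 elsewhere. These 4 libraries, all under 400000 UMIs, stand apart from the rest, and depth and the SykY317F LZ group cannot be told apart. Of 10 GC B cell markers 9 were in the table, and their summed level was 7525 to 8250 CPM (UMIs per library size) in SykY317F LZ, 7879 to 8788 in SykY317F DZ, 6141 to 7901 in WT LZ and 8280 to 11446 in WT DZ. The 5 LZ markers summed to 2772 to 2967 CPM in SykY317F LZ, 1589 to 2152 in SykY317F DZ, 2144 to 3043 in WT LZ and 1259 to 1555 in WT DZ. The 4 DZ markers summed to 710 to 853, 955 to 1416, 598 to 866 and 1574 to 1765 CPM in the same groups. Both sums separated the zones as labelled within each genotype, although the DZ marker Cxcr4 alone averaged 325 CPM in SykY317F LZ against 276 CPM in SykY317F DZ. Of 8 T cell markers 6 were in the table, with sums of 47.8 to 124 CPM in SykY317F LZ (Icos at 0), 77.0 to 177 in SykY317F DZ, 55.4 to 142 in WT LZ and 18.6 to 50.7 in WT DZ. All 8 myeloid markers were in the table, with sums of 47.8 to 113 CPM in SykY317F LZ, 262 to 545 in SykY317F DZ, 57.6 to 161 in WT LZ and 91.9 to 389 in WT DZ. Of 5 plasma cell markers 4 were in the table, with sums of 310 to 715 CPM in SykY317F LZ (Sdc1 at 0), 441 to 910 in SykY317F DZ, 218 to 573 in WT LZ and 267 to 1228 in WT DZ. The part of these other cell types in the values below was not tested. In sorted pools, fewer cells of a type and less RNA per cell cannot be told apart.

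The 49 members took 0.538% to 0.857% of the UMIs of a library. In every CPM the library sizes carry TMM factors, which level out differences in composition. A UMI tags a transcript end, so CPM were not divided by transcript length, and an order of genes by CPM is an order of tagged ends per library. Across the 46 members that passed a filter on low counts, mean CPM and transcript length had a Spearman correlation of -0.47, against -0.23 across 7563 tested genes with a known length; genes of 1 sample set share its libraries, so these are descriptions only.

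The Sm ring proteins, the shared core of most snRNPs, gave the highest sum of the spliceosome's structural parts. Their 7 genes summed to 1839 ± 517 CPM in SykY317F LZ, 2024 ± 508 in SykY317F DZ, 1878 ± 222 in WT LZ and 2245 ± 360 in WT DZ (SD, n = 3, 3, 4 and 4). Snrpb, which encodes the ring proteins B and B′, had the highest mean CPM of all members over the 14 libraries, with 407 ± 164 CPM in SykY317F LZ, 667 ± 234 in SykY317F DZ, 584 ± 106 in WT LZ and 669 ± 206 in WT DZ. Over all libraries Snrpf followed within the ring and Snrpe came last, although its mean of 210 CPM in SykY317F LZ, against 85.3 CPM in WT LZ, was above that of Snrpd3 there, 106 CPM. Snrpn, a near copy of Snrpb, had no row here and was not analysed, and how reads shared by the pair were counted is not given in the sources used here.

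Proteins that belong to one snRNP were fewer. The U1 proteins Snrpa and Snrpc, which hold a loop of U1 RNA and help it to pair with the start of the intron, and the U2 proteins Snrpa1 and Snrpb2, which bind U2 RNA as a pair, summed to 396 ± 100 CPM in SykY317F LZ, 480 ± 72.0 in SykY317F DZ, 421 ± 86.6 in WT LZ and 539 ± 55.6 in WT DZ. The 9 subunits of SF3A and SF3B, the complexes with which the U2 snRNP grips the branch point, summed to 1131 ± 14.3, 1151 ± 125, 1173 ± 106 and 1267 ± 104 CPM in the same 4 groups. Among them Sf3b2 and Sf3b5 had the highest CPM, and Sf3b1, the large subunit around the branch point, was among the 5 members with under 10 UMIs per library on average.

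Among SR proteins, Srsf5 and Srsf2 had the highest CPM. Srsf5 had 306 ± 38.8 CPM in SykY317F LZ, 340 ± 60.1 in SykY317F DZ, 331 ± 37.8 in WT LZ and 288 ± 9.97 in WT DZ. Srsf1, Srsf3 and Srsf7, the SR proteins that shuttle between nucleus and cytoplasm and take part in mRNA export, had mean levels of at most 38.0 CPM in every group. Srsf3 had 2.98, 16.9 and 25.1 CPM in SykY317F LZ, 19.6, 49.8 and 19.4 in SykY317F DZ, 9.87, 14.8, 23.0 and 41.0 in WT LZ and 20.7, 53.0, 48.1 and 30.1 in WT DZ. Srsf7 averaged 17.5 ± 14.6, 19.1 ± 6.91, 18.8 ± 12.4 and 26.1 ± 10.7 CPM in the same groups, and the groups of both genes overlapped.

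The 19 Hnrnp genes spanned the widest range. Hnrnpab averaged 432 ± 173 CPM in SykY317F LZ, 489 ± 63.7 in SykY317F DZ, 612 ± 158 in WT LZ and 576 ± 68.9 in WT DZ, and its mean was above that of Snrpb in both LZ groups. Hnrnpk, which binds runs of C, and Hnrnpm came next in CPM. At the other end were Hnrnpd, Hnrnpr and Hnrnpll, the 3 members that the filter left out of all tests. Hnrnpll, known from mouse and human lymphocytes for the splicing of the phosphatase CD45, had 0 UMIs in each SykY317F LZ library, 0, 7 and 0 in SykY317F DZ, 0, 1, 2 and 2 in WT LZ and 1, 3, 1 and 0 in WT DZ. Hnrnpr also had 0 UMIs in each SykY317F LZ library, where 3 UMIs, the limit that a count of 0 allows, correspond to between 8.95 and 18.8 CPM for counting error only. Neither gene could be ranked between the groups at this depth.

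**Figure D1:**
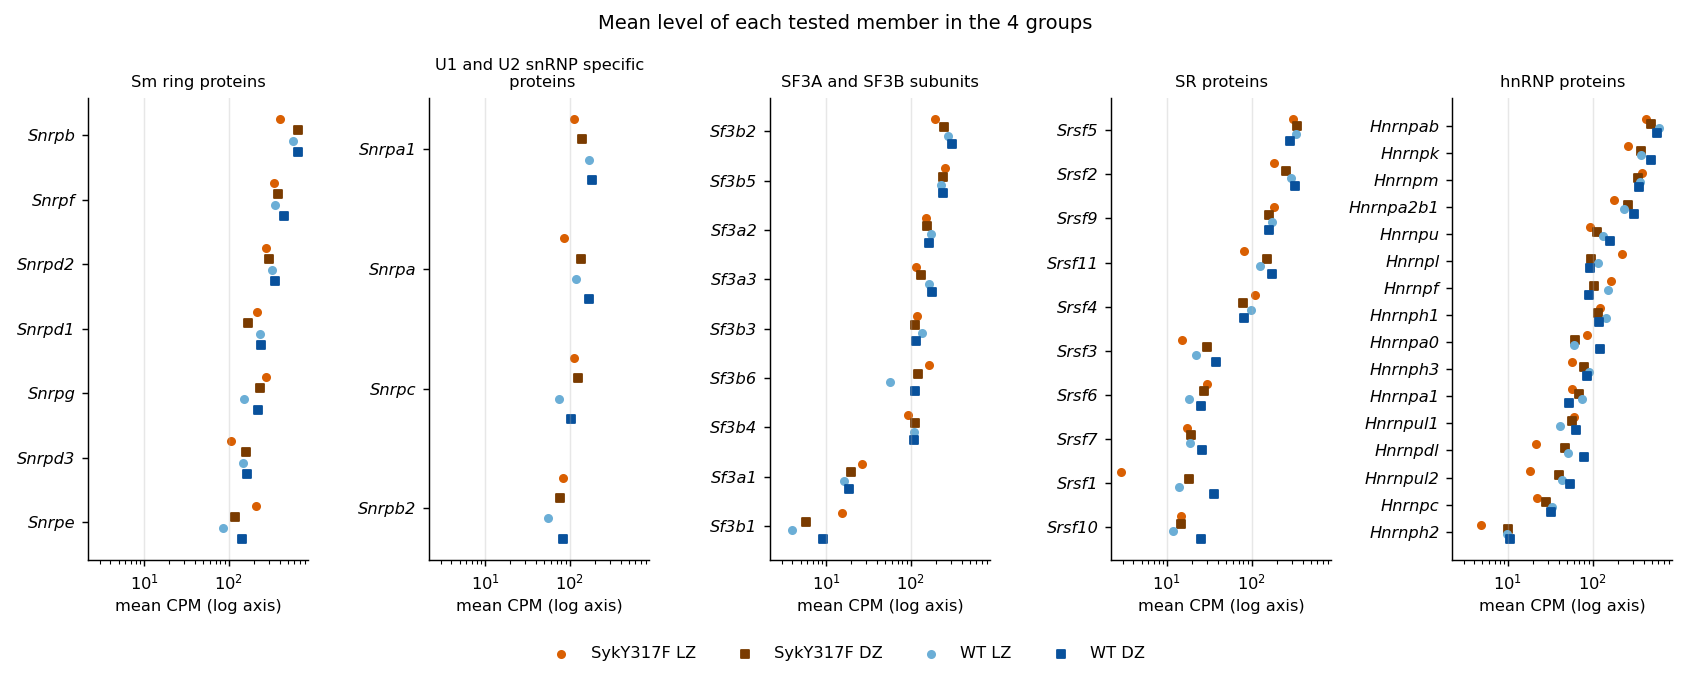
Mean CPM (log axis) of the 46 tested members in SykY317F LZ, SykY317F DZ, WT LZ and WT DZ, in 1 panel per role and ordered by mean CPM. Most members lie within a narrow band over the groups, while Srsf1, with 2.88 CPM in SykY317F LZ and 36.2 CPM in WT DZ, spreads the most on this scale.

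Summed over all 49 members, the level was 6494 ± 337 CPM in SykY317F LZ, 7056 ± 661 in SykY317F DZ, 7119 ± 634 in WT LZ and 7933 ± 472 in WT DZ. The Snrp genes summed to 2236 ± 617, 2504 ± 577, 2299 ± 252 and 2785 ± 363 CPM in the same groups, and the Srsf genes to 944 ± 131, 1099 ± 80.3, 1106 ± 99.8 and 1180 ± 127 CPM. The Hnrnp genes summed to 2183 ± 543, 2302 ± 108, 2540 ± 341 and 2702 ± 246 CPM. In each of these 3 families WT DZ had the highest mean and SykY317F LZ the lowest. The groups overlapped in the Snrp and Srsf sums, while all SykY317F DZ libraries lay below all WT DZ libraries in the Hnrnp sum, with 2213 to 2422 CPM against 2482 to 3020 CPM. The Sf3b sum was the most even, with 837 ± 15.4 CPM in SykY317F LZ, 844 ± 79.7 in SykY317F DZ, 816 ± 41.0 in WT LZ and 902 ± 55.7 in WT DZ. No test was made on these sums, since the genes were grouped with earlier results known.

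**Figure D2:**
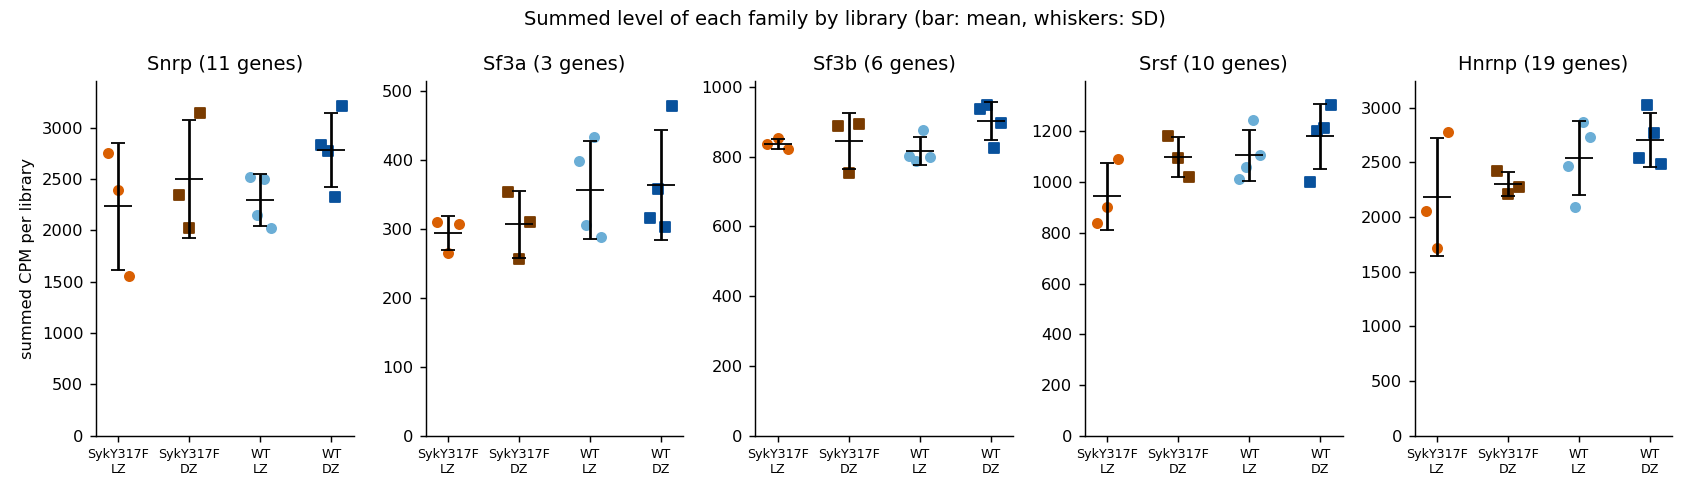
Summed CPM of the Snrp, Sf3a, Sf3b, Srsf and Hnrnp genes in each of the 14 libraries, with 1 point per library, the group mean as a bar and the SD as whiskers. The Sf3b sums stay between 752 and 949 CPM in all libraries, while the Snrp sums run from 1556 CPM in a SykY317F LZ library to 3209 CPM in a WT DZ library.

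With edgeR's quasi-likelihood test and Benjamini-Hochberg adjustment over 7999 genes, 0 of the 46 tested members passed an adjusted p of 0.05 in any of 7 comparisons. The share of all genes that passed was 0% for SykY317F against WT in DZ, 0% for SykY317F against WT in LZ, 0.0375% for LZ against DZ in SykY317F and 0.188% for LZ against DZ in WT. It was 0% for the genotypes over both zones, 1.43% for the zones over both genotypes and 0% for the difference of the zone effects. At an unadjusted p under 0.05 there were 0 members higher and 1 lower in SykY317F DZ against WT DZ (3.81% of all genes in either direction), and 4 higher and 4 lower in SykY317F LZ against WT LZ (9.81%). There were 2 higher and 4 lower in SykY317F LZ against SykY317F DZ (10.3%), and 1 higher and 2 lower in WT LZ against WT DZ (8.48%). Over both zones 1 member was higher and 6 lower in SykY317F (10.1%), over both genotypes 2 were higher and 5 lower in LZ (14.3%), and 2 had a positive difference of zone effects and 0 a negative one (4.80%). The share of members was furthest above the background in SykY317F LZ against WT LZ, with 8 of 46 or 17.4%. With the replicate number as a block there were 3 higher and 0 lower there (6.52% of members against 6.66% of all genes). For the genotypes over both zones the block left 1 higher and 0 lower (2.17% against 5.24%). Without WT LZ replicate 5 the LZ genotype count was 3 higher and 2 lower (10.9% against 9.12%). Without SykY317F LZ replicate 4 it was 3 higher and 6 lower (19.6% against 10.6%). The share was 6.52% in the zone comparison within WT. That last count moved with single libraries: it was 1 higher and 8 lower (19.6% of members against 12.3% of all genes) without WT DZ replicate 5, and 2 higher and 7 lower (19.6% against 12.4%) without WT LZ replicate 5. It was 1 higher and 0 lower (2.22% against 5.65%) without WT DZ replicate 3, 1 and 0 (2.17% against 4.90%) without WT LZ replicate 2, 1 and 4 (10.9% against 8.89%) without WT LZ replicate 3, and 0 and 0 (0% against 6.14%) without WT LZ replicate 1. By limma voom with sample quality weights it was 2 higher and 15 lower, 37.0% of members against 22.4% of all genes. DESeq2's Wald test called 2 members, Hnrnpf higher and Srsf11 lower in LZ over both genotypes, beside 2.94% of all genes. The voom fit called Srsf11 there, beside 2.84% of all genes, and Snrpe lower in WT LZ, beside 3.69%. Both called 0 members in the other comparisons, beside 0 to 84 of the 7999 genes.

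Under TMM scaling, most members lay on the lower side of 0 in every comparison, as did most of all genes tested. In SykY317F DZ against WT DZ, 10 of 46 had a positive log2 fold change, with a median of -0.17, against 45.0% and a median of -0.04 for all genes tested. In SykY317F LZ against WT LZ, 17 of 46 were positive, with a median of -0.22 against -0.06 for all genes. In SykY317F LZ against SykY317F DZ, 19 were positive (41.3%, against 46.7% of all genes), with a median of -0.14 against -0.04. In WT LZ against WT DZ 13 were positive with a median of -0.18 against -0.02. All 7 Sm ring genes and all 4 U1 and U2 genes were on the lower side in WT LZ, with medians of -0.20 and -0.49. So were 7 of 10 SR genes and 7 of 9 SF3A and SF3B genes, with medians of -0.46 and -0.14. Of 16 hnRNP genes 8 were on each side there, and 48.3% of all genes were on the higher side. In SykY317F LZ 3 of the 7 Sm ring genes and 1 of the 4 U1 and U2 genes were on the higher side, with medians of -0.08 and -0.16. These 4 comparisons share libraries and are not independent. Scaling by library totals alone shifted the median of all genes to -0.16 in the LZ genotype comparison and to -0.19 in the SykY317F zone comparison, and the members' medians there to -0.33 and -0.27. The trend of log counts on transcript GC content was also taken out library by library, a step chosen after the data were seen. The members' median in the SykY317F zone comparison was then -0.00012, with 23 of 46 positive, against 0.04 for all genes. In the WT zone comparison it was -0.15, with 17 positive, against -0.005 for all genes. Transcript GC content and the log2 fold change of LZ over DZ in WT had a Spearman correlation of 0.28 across 46 members and of 0.37 across 7563 genes.

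**Figure D3:**
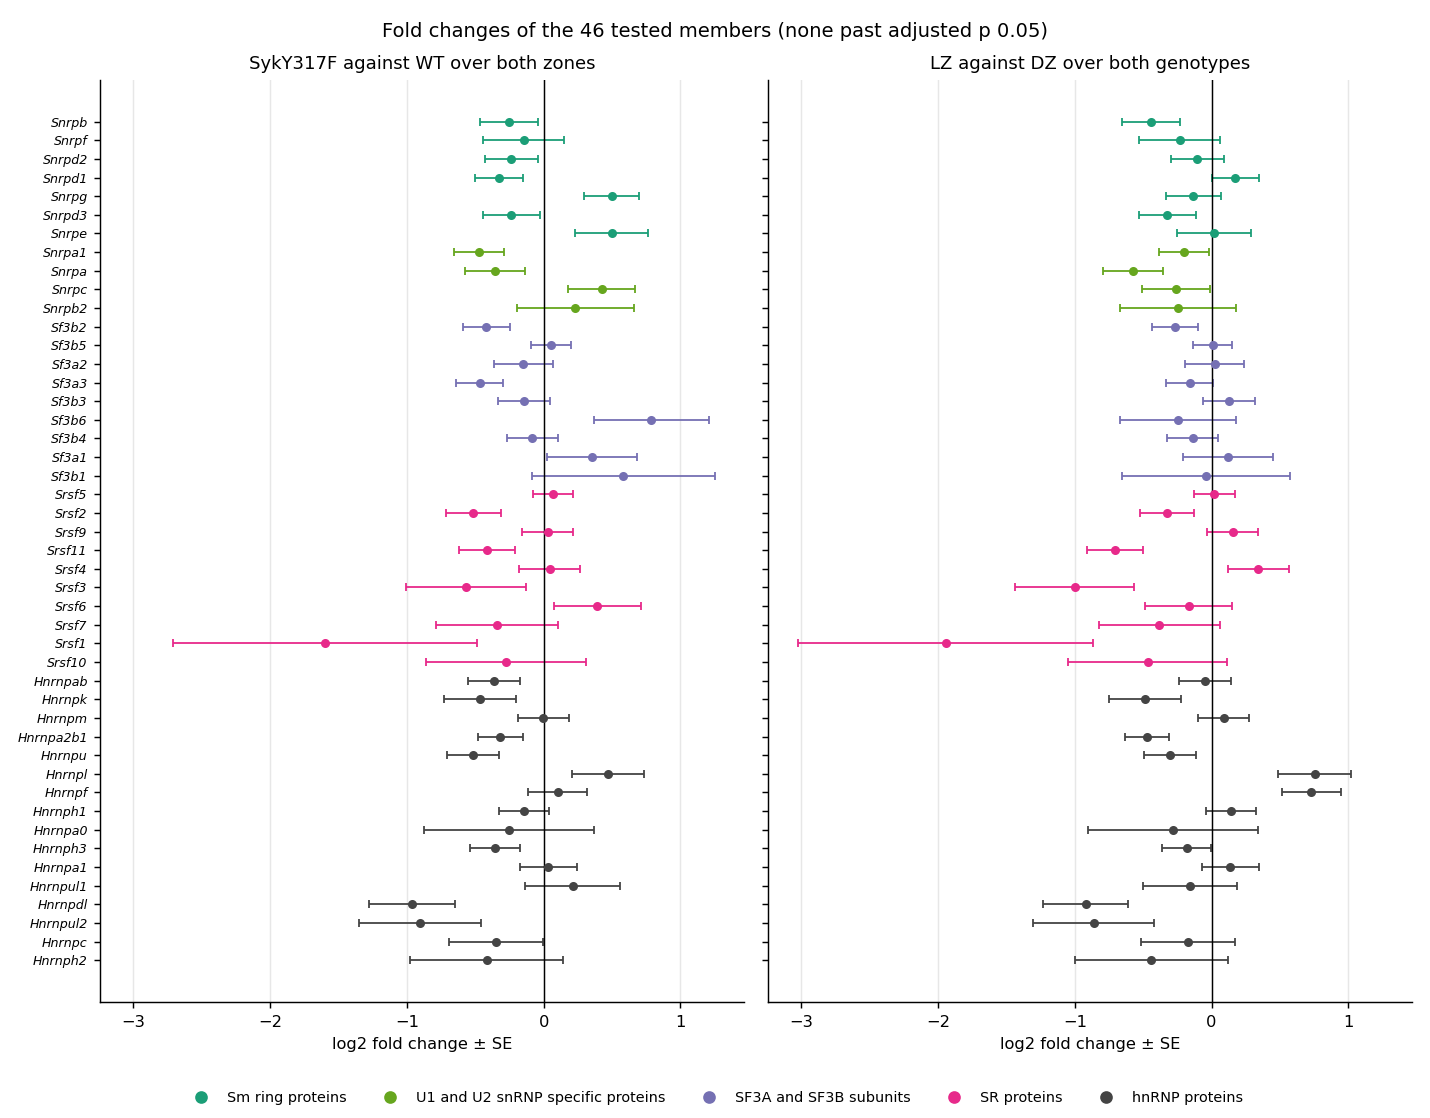
Log2 fold change with its SE for each of the 46 tested members, for SykY317F against WT over both zones (left) and LZ against DZ over both genotypes (right), coloured by role. Hnrnpf and Hnrnpl lie farthest to the right in the zone panel at 0.73 and 0.76, Srsf1 lies farthest to the left in both panels with the widest error, and 0 members passed the adjusted p of 0.05.

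Between the zones, the member closest to the threshold was Srsf11, an SR-related protein linked to recognition of the end of the intron (chromosome 3, 158010473 to 158036639, GRCm38). Srsf11 had 65.7, 62.1 and 119 CPM in SykY317F LZ, against 155, 147 and 160 CPM in SykY317F DZ. In WT it had 80.1, 120, 163 and 140 CPM in LZ, against 118, 188, 186 and 203 CPM in DZ. The SykY317F zones did not overlap and the WT zones did. Its log2 fold change of LZ over DZ was -0.71 ± 0.21 (SE) over both genotypes, with an adjusted p of 0.0958 by edgeR, -0.94 ± 0.33 in SykY317F and -0.48 ± 0.25 in WT. Without SykY317F LZ replicate 4, the value over both genotypes was -0.87 with an adjusted p of 0.0441 (edgeR). In that refit 1.58% of all genes passed. The library left out had the most Srsf11 of its group, so its removal widens the difference between the zones. Over 24 alternatives the log2 fold change ran from -0.87 to -0.55, and in 21 of them Srsf11 did not pass.

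Hnrnpf, a protein that binds runs of G near splice and polyadenylation sites (chromosome 6, 117900324 to 117925622), was at the other end. Hnrnpf had 149, 119 and 226 CPM in SykY317F LZ, against 78.4, 76.7 and 155 CPM in SykY317F DZ. In WT it had 217, 153, 127 and 118 CPM in LZ, against 72.5, 94.0, 87.2 and 111 CPM in DZ. All 4 WT LZ libraries were above all 4 WT DZ libraries, and in SykY317F replicate 4 of DZ reached into the LZ range. The log2 fold change was 0.73 ± 0.22 over both genotypes (adjusted p = 0.104, edgeR), 0.71 ± 0.34 in SykY317F and 0.75 ± 0.27 in WT, and the difference between the genotypes was -0.04 ± 0.43.

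Hnrnpl, which binds CA-rich RNA and is a paralogue of Hnrnpll (chromosome 7, 28808541 to 28822266), had 185, 141 and 339 CPM in SykY317F LZ, against 143, 45.7 and 96.8 CPM in SykY317F DZ. In WT it had 160, 92.9, 125 and 87.2 CPM in LZ, against 77.7, 88.8, 67.6 and 138 CPM in DZ. SykY317F LZ replicate 4 was the highest of the 14 libraries, and the zones overlapped in both genotypes. The log2 fold change was 0.76 ± 0.27 over both genotypes (adjusted p = 0.179, edgeR), 1.20 ± 0.41 in SykY317F and 0.31 ± 0.34 in WT, with a difference between genotypes of 0.90 ± 0.53 (adjusted p = 0.999).

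Hnrnpdl, a relative of the AU-rich element binder Hnrnpd (chromosome 5, 100033577 to 100039664), had 17.9, 28.2 and 18.8 CPM in SykY317F LZ, against 39.9, 72.0 and 30.4 CPM in SykY317F DZ. In WT it had 23.0, 37.6, 69.1 and 73.3 CPM in LZ, against 72.5, 95.5, 91.7 and 54.0 CPM in DZ. Every SykY317F LZ library was thus below every DZ library of either genotype. The SykY317F LZ values rest on only 6, 5 and 3 UMIs, and the nearest DZ library, SykY317F DZ replicate 4, held 11 UMIs. The log2 fold change was -0.92 ± 0.31 for LZ over DZ (adjusted p = 0.160, edgeR) and -0.96 ± 0.31 for SykY317F over WT (adjusted p = 0.274), each over both levels of the other factor. Hnrnpdl thus had the smallest p of the members in the genotype comparison over both zones.

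Hnrnpa2b1, known for binding and sorting RNAs with a short purine-rich motif (chromosome 6, 51460932 to 51469894), had 155, 198 and 188 CPM in SykY317F LZ, against 225, 297 and 263 CPM in SykY317F DZ. In WT it had 241, 182, 211 and 301 CPM in LZ, against 263, 330, 313 and 329 CPM in DZ. The SykY317F zones did not overlap, while WT LZ replicate 5 lay within the DZ range. The log2 fold change was -0.47 ± 0.16 over both genotypes (adjusted p = 0.162, edgeR). After removal of the GC trends it was -0.25, with an adjusted p of 0.542.

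**Figure D4:**
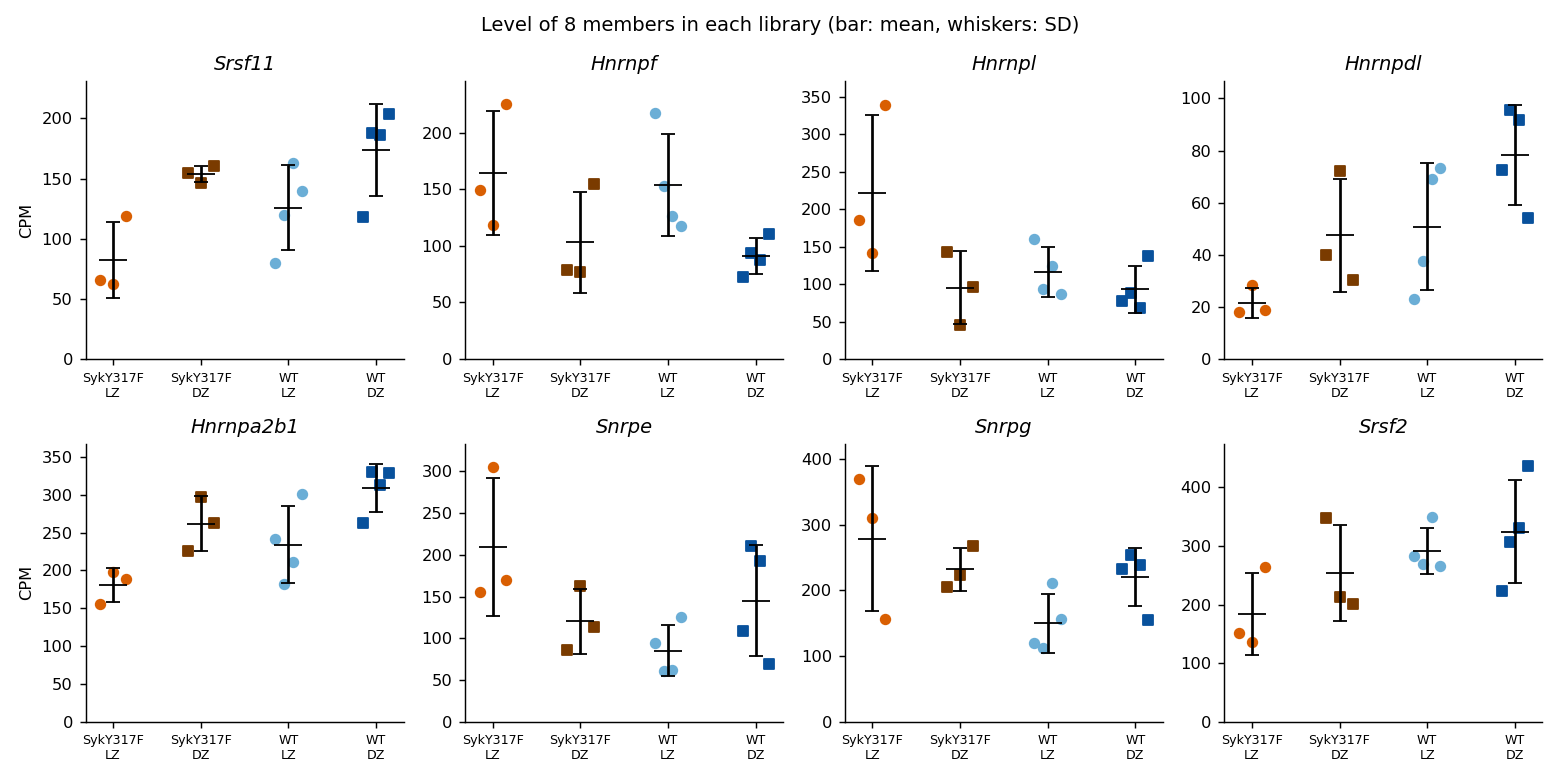
CPM of Srsf11, Hnrnpf, Hnrnpl, Hnrnpdl, Hnrnpa2b1, Snrpe, Snrpg and Srsf2 in each library, with 1 point per library, the group mean as a bar and the SD as whiskers. Srsf11, Hnrnpdl and Hnrnpa2b1 have their 3 SykY317F LZ points below all SykY317F DZ points, and the 3 SykY317F LZ points of Snrpe, from 155 to 305 CPM, lie above all WT LZ points.

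For SykY317F against WT within LZ, the smallest p-values belonged to Snrpg and Snrpe, neighbours in the Sm ring. Snrpg (chromosome 6, 86371304 to 86379328) had 370, 310 and 157 CPM in SykY317F LZ, against 121, 112, 211 and 156 CPM in WT LZ. Snrpe (chromosome 1, 133603871 to 133610291) had 155, 305 and 169 CPM in SykY317F LZ, against 94.3, 60.3, 61.4 and 125 CPM in WT LZ. The Snrpe groups did not overlap, and for Snrpg SykY317F LZ replicate 4 fell within the WT range. The log2 fold changes were 0.93 ± 0.29 for Snrpg (adjusted p = 0.279, edgeR) and 1.26 ± 0.39 for Snrpe (adjusted p = 0.289). With the GC trends removed, a step added after the data were seen, Snrpe alone of the members passed in this comparison, beside 0.300% of all genes. Its log2 fold change was then 1.37 with an adjusted p of 0.0447 (edgeR). In the other 24 of 25 alternatives Snrpe did not pass, with log2 fold changes from 0.78 to 1.52. The other 5 Sm ring genes did not share this direction and had log2 fold changes between -0.50 and -0.03.

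In DZ, Snrpe had 85.7, 162 and 113 CPM in SykY317F, against 109, 210, 192 and 69.7 CPM in WT, so the groups overlapped. The zone effect of Snrpe was 0.78 ± 0.42 in SykY317F and -0.75 ± 0.35 in WT, and the difference of 1.53 ± 0.54 had the smallest p of the members in that comparison (adjusted p = 0.991, edgeR). Snrpg gave a difference of 0.86 ± 0.40 (adjusted p = 0.999). Neither difference passed, and SykY317F LZ, the group with the fewest UMIs, enters both. The annotated transcripts of Snrpe and Snrpg are 550 and 1055 bases long. In SykY317F LZ against WT LZ, 57.0% of the 704 tested genes with transcripts under 1 kb had a positive log2 fold change. The share was 44.6% of the 6859 longer ones, a class that includes Snrpg. Of the 4 members under 1 kb, which include Snrpe, 2 were on the higher side. The part of transcript length was not tested.

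Sf3b6, the small SF3B subunit that contacts the branch point adenosine (chromosome 12, 4817544 to 4827659), had 152, 181 and 163 CPM in SykY317F LZ, against 42.8, 45.5, 38.4 and 102 CPM in WT LZ. In DZ it had 95.8, 122 and 149 CPM in SykY317F, against 110, 180, 149 and 13.8 CPM in WT. The LZ groups did not overlap, with a log2 fold change of 1.48 ± 0.62 (adjusted p = 0.450, edgeR). WT DZ held both the lowest library of all 14, replicate 5, and 1 of the highest.

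The members on the lower side in SykY317F LZ included Srsf2, an SR protein that binds exonic enhancers. Srsf2 had 152, 135 and 263 CPM in SykY317F LZ, against 283, 269, 349 and 266 CPM in WT LZ, which did not overlap, with a log2 fold change of -0.68 ± 0.30 (adjusted p = 0.444, edgeR). Sf3b2, a subunit of SF3B that cross-links near the branch point, had 200, 226 and 151 CPM in SykY317F LZ, against 260, 252, 340 and 263 CPM in WT LZ. Sf3a3, one of the SF3A subunits, had 119, 119 and 113 CPM in SykY317F LZ, against 143, 161, 219 and 140 CPM in WT LZ. Both genes had every SykY317F LZ library below every WT LZ library. Their log2 fold changes were -0.53 ± 0.25 for Sf3b2 (adjusted p = 0.502) and -0.49 ± 0.26 for Sf3a3 (adjusted p = 0.548), both by edgeR. Over both zones Sf3a3 gave -0.47 ± 0.17 (adjusted p = 0.351), and Hnrnpu, a nuclear matrix protein that binds RNA and DNA, gave -0.52 ± 0.19 (adjusted p = 0.351).

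Within DZ, Snrpd1, a Sm ring protein, had the smallest p of the members between the genotypes. Snrpd1 had 118, 167 and 216 CPM in SykY317F DZ, against 251, 272, 203 and 237 CPM in WT DZ. The groups overlapped by 1 library each, and the log2 fold change was -0.55 ± 0.24 (adjusted p = 1.0, edgeR). Hnrnpa1, a repressor of exons that is a classic counterpart of SR proteins, had 69.7, 76.7 and 63.6 CPM in SykY317F DZ, against 51.8, 53.0, 55.2 and 52.8 CPM in WT DZ. Those groups did not overlap, yet the log2 fold change was 0.41 ± 0.27 (adjusted p = 1.0) and it was -0.0034 on read counts. Hnrnpk had 399, 381 and 343 CPM in SykY317F DZ, against 404, 600, 522 and 432 CPM in WT DZ, so that the groups lay next to each other without overlap.

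Groups without overlap were about as common among members as among all genes. In SykY317F DZ against WT DZ, 1 of 46 members had all SykY317F libraries higher (Hnrnpa1; 3.56% of all genes) and 2 had all lower (Hnrnpk and Snrpa1; 2.31%). In SykY317F LZ against WT LZ, 2 had all higher (Sf3b6 and Snrpe; 3.84%) and 5 all lower (Hnrnph3, Sf3a3, Sf3b2, Snrpa1 and Srsf2; 6.66%). Snrpa1 was the one gene among these that lay lower in SykY317F in both zones. In SykY317F LZ against SykY317F DZ, 1 had all LZ libraries higher (Sf3b6; 6.56%) and 3 all lower (Hnrnpa2b1, Hnrnpdl and Srsf11; 8.50%). In WT LZ against WT DZ, 3 had all higher (Hnrnpa1, Hnrnpf and Srsf5; 2.89%) and 0 all lower (2.88%). Hnrnpa1 had 88.9, 84.0, 65.3 and 64.7 CPM in WT LZ, with a log2 fold change of 0.51 ± 0.25 over WT DZ (adjusted p = 0.599, edgeR), against 74.6, 73.4 and 25.1 CPM in SykY317F LZ and -0.23 ± 0.33 over SykY317F DZ.

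Members varied between libraries of a group. The coefficient of variation of the 46 tested members had a median of 35.3% in SykY317F LZ, 27.2% in SykY317F DZ, 27.8% in WT LZ and 22.8% in WT DZ, where the median number of UMIs per member and group was 78.5, 375, 497 and 569. Srsf1, a founding SR protein that acts in constitutive and alternative splicing, varied the most in SykY317F DZ and in WT LZ. The SykY317F LZ libraries held 1, 1 and 0 UMIs of Srsf1, and it had 4, 65 and 3 in SykY317F DZ, 0, 14, 2 and 66 in WT LZ and 23, 78, 57 and 10 in WT DZ. Its log2 fold change of -1.95 ± 1.08 for LZ over DZ over both genotypes (adjusted p = 0.435, edgeR) thus came with libraries at 0 and others above 60 UMIs in the same zone. Several members shared a low value in WT DZ replicate 5, an observation made after the values were seen: Hnrnpa0 had 14.4 CPM there, against 101 to 211 in the other 3 WT DZ libraries. Snrpb2 had 14.4 CPM against 55.7 to 144, and Srsf10 had 5.02 CPM against 28.5 to 35.1. In the same library Snrpb and Snrpf were the highest of the 4, with 963 and 752 CPM. The low values were not confined to it, since WT LZ replicate 1 and SykY317F DZ replicate 1 were also the lowest of their groups. They had 13.2 and 23.2 CPM of Hnrnpa0, 27.4 and 43.6 of Snrpb2, and 6.58 and 1.45 of Srsf10. Over the tested genes, deviations from group means in WT DZ replicate 5 correlated at 0.54 with WT LZ replicate 1 and at -0.56 with WT LZ replicate 5. The cause was not tested. The 5 members under 10 UMIs per library on average (Hnrnph2, Sf3b1, Hnrnpd, Hnrnpr and Hnrnpll) did not exceed 20 UMIs in any library.

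Genes of the spliceosome outside these families, such as U2 auxiliary, helicase, kinase and Lsm genes, were listed with earlier results known. Of 100 listed genes 97 were in the table and 94 were tested, and 0 passed an adjusted p of 0.05 in each of the 7 comparisons. At an unadjusted p under 0.05, 1 was higher and 14 lower in SykY317F over both zones (16% of these genes against 10.1% of all genes), and 4 were higher and 13 lower in SykY317F LZ against WT LZ (18.1% against 9.81%). Over both genotypes 2 were higher and 7 lower in LZ (9.57% against 14.3%), and in the other 4 comparisons the share was 1.06% to 7.45%, against 3.81% to 10.3% of all genes. Their median log2 fold changes were -0.14 for SykY317F over WT over both zones and -0.13 for LZ over DZ over both genotypes, against -0.24 and -0.18 for the 46 members and -0.05 and -0.03 for all genes tested.

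In the authors' deposited table, which covers 6 pairs of groups, 0 members had an adjusted p under 0.05 in 5 pairs, where 0.181% to 0.782% of the 9969 genes had one. The sixth sets SykY317F LZ against WT DZ and so crosses genotype and zone. There the authors' deposited table gives Hnrnpdl a log2 fold change of -1.88 (adjusted p = 0.0359), Srsf11 -1.12 (adjusted p = 0.0386) and Hnrnpa2b1 -0.79 (adjusted p = 0.0475). These 3 of 49 members stand beside 2.99% of the 9969 genes in that pair of the authors' deposited table.

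Of the members, 8 overlap another tested gene in the annotation: Hnrnpab, Hnrnpk, Hnrnpm, Hnrnpu, Sf3a2, Sf3b3, Snrpd3 and Srsf2. Whether counting used the strand is not given in the sources used here, so UMIs of these genes and of their neighbours cannot be told apart.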

How the data were processed

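Per the labels' protocols, poly(A) RNA of sorted GC B cells was bound to oligo(dT) beads and sequenced by a variant of MARS-seq, a method that tags transcript ends with UMIs. Tools named without role or order in the submitters' processing notes are STAR 2.4.2a, cutadapt, HTSeq, DESeq and DESeq2, and the build is mm10. UMI counts, as deposited, are raw whole numbers for each symbol, and a second table holds deposited read counts, used as an alternative. The authors also deposited normalized values (a signal) and regularised log2 values, neither used here, and their own comparisons as log2 fold change, p-value and adjusted p-value, quoted where named.

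Groups follow the labels for genotype and zone. After filterByExpr (7999 genes kept, with 99.3% of UMIs) counts were scaled by TMM and fitted with edgeR 4.0.16's robust quasi-likelihood model of 4 groups (R 4.3.3, common biological coefficient of variation 32.3%). P-values were adjusted by Benjamini-Hochberg over the 7999 genes. Steps were tested on simulated counts. Alternatives were DESeq2 1.42.0 (size factors, Wald test), library totals, limma 3.58.1 voom, 2 other filters, pairs of groups alone, read counts, a replicate block and leaving out libraries. Positions, lengths and GC content are those of the GRCm38 annotation.

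Members, gene lists and tests were chosen with earlier results of these data known. Named are, per comparison, the 3 members with the smallest p in each direction where fewer passed, the 3 highest of each family and 17 fixed symbols. Counting intervals cover counting error only.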

Additional observations from a re-analysis of the deposited data

Results flagged for a closer look

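Of 84 groups of 4 libraries tested, 7 held a library far from the other 3 by Dixon's criterion of 0.829, where chance flags about 1 in 20 groups. In WT LZ replicate 1, Snrpd1 had 310 CPM against 203 to 213 in the other 3 WT LZ libraries, and Snrpf had 619 CPM against 239 to 302. In WT LZ replicate 5, Sf3b6 had 102 CPM against 38.4 to 45.5. In WT LZ replicate 3, Sf3b2 had 340 CPM against 252 to 263, and the Sf3b sum was 877 CPM against 789 to 801. In WT DZ replicate 2, Hnrnpu had 141 CPM against 166 to 170 in the other 3 WT DZ libraries. In WT DZ replicate 4, Hnrnpd had 8.01 CPM against 3.73 to 3.88, which are at most 9 UMIs. Groups of 3 libraries, hence all of SykY317F, were too small for this criterion.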

How the results depend on the processing

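The count of 0 members past an adjusted p of 0.05 was also found in 169 of 174 recomputed counts over the 7 comparisons. In the other 5 it was 2 by DESeq2's Wald test and 1 by voom for LZ against DZ over both genotypes, 1 by voom for LZ against DZ in WT, and 1 with GC trends removed for SykY317F against WT in LZ. Leaving out 1 library gave 0 to 2 for LZ against DZ over both genotypes. The 2 (Hnrnpk and Srsf11) came without SykY317F LZ replicate 4, beside 1.58% of all genes. The cause was not tested. Of 1044 recomputed fold changes of named members, 4 reversed, all in SykY317F DZ against WT DZ. Hnrnpa1 gave -0.0034 on read counts, and Snrpc gave -0.22 on read counts, -0.26 to 0.45 when 1 library was left out (lowest without SykY317F DZ replicate 4) and -0.23 without the 4 libraries under 400000 UMIs, an alternative added after seeing the data, as was the GC trend. Without those 4 libraries the comparisons within LZ could not be fitted for SykY317F. Family sums moved by more than 1 SD in 17 of 110 cases, 16 of them on read counts. With the replicate number as a block, 0 members passed in each of the 7 comparisons; same-numbered libraries had correlations of their deviations between -0.56 and 0.31, and the labels do not say that a number marks a shared mouse. Depth limits SykY317F LZ, where 3 UMIs are at least 8.95 CPM.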
